A study of Rattus norvegicus with 16 samples.

Results

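Adult male rats that had been moved to a foster mother at birth (group MM) were compared with rats left with their own mother (group M), when all of the mothers involved had been dosed with the same mixture of persistent contaminants. The arrays were chosen by their titles, cross-fostered M against M, which gave 4 arrays of each group, 8 of the 16 arrays of the series. The rats were male Sprague-Dawley rats, an outbred laboratory stock, 78 to 86 days old when the liver was sampled. Mixture M held methylmercury, organochlorine pesticides and polychlorinated biphenyls in corn oil and was given to the dams at 1 mg/kg/day. Treatment ran from gestation day 0 to postnatal day 20, so both groups were exposed before birth and through milk, and neither is an unexposed group. In MM the mother that bore the pups and the mother that nursed them had both been dosed, and fostering took place between litters born at the same time. M litters were not moved. Each group held 8 pups, and RNA of 2 rats was pooled at random for each array. The labels do not tie a rat to a litter, so pools may share littermates, and every p-value measures the spread between these pools. The titles and treatment fields of the M arrays give exposure to the mixture, while their description reads as a control. They were treated as exposed here. The other groups, C (corn oil, own mother) and CC (corn oil, foster mother), had 4 arrays each on another slide and served only to test whether a difference between MM and M differed from the same contrast in unexposed litters.

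The liver is a target of both factors. Handling and care in early life are known to act on the pups' glucocorticoid axis, and glucocorticoids act on liver genes of gluconeogenesis and amino acid breakdown through the receptor Nr3c1. Polychlorinated biphenyls and organochlorine pesticides activate the nuclear receptors CAR (Nr1i3) and PXR (Nr1i2), which induce cytochromes P450 of the Cyp2b and Cyp3a families, and some congeners bind the aryl hydrocarbon receptor, which induces Cyp1a enzymes. The same cells make cholesterol and bile acids, burn and store fatty acids, secrete plasma proteins and hold a standing level of interferon-stimulated antiviral genes.

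Each value is the log2 ratio of the liver signal (Cy5) over a universal rat reference (Cy3, RNA of 14 cell lines) at a probe, so a difference of 1 between groups is a 2-fold change. A feature, which is a gene or a transcript under its accession, entered the test when the scanner software placed its liver signal well above background in 3 or more of the 4 M pools or of the 4 MM pools, and 10811 of 26913 named features passed. On the 8 arrays, between 35.0% (MM replicate 3) and 41.9% (M replicate 8) of probes passed that mark in liver, and 62.2% to 66.1% in the reference. Repeated spots of a probe varied by a coefficient of 18.2% to 40.0% in the liver channel, with the highest value again on MM replicate 3. The log ratios of any pair of the 8 arrays correlated at 0.954 to 0.992 across features. All 16 hepatocyte markers, albumin among them, were well above background on all 8 arrays. M replicates 5 and 6 and MM replicates 1 and 2 lay in row 1 of the slide and the other 4 arrays in row 2. Values of single genes are listed in the order of replicates 5 to 8 for M and 1 to 4 for MM, and a difference is MM minus M on the log2 scale with the slide row as a block.

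Few liver transcripts differed between MM and M beyond the spread between pools. With limma and Benjamini-Hochberg adjustment, 1 of the 10811 features passed an adjusted p of 0.05 (0.00925%), a transcript lower in MM and known here only by its RefSeq accession, NM_001013993. None of the 7213 tested features with a current gene symbol passed, and the smallest adjusted p among them was 1.00. At an unadjusted p under 0.05 there were 377 features (3.49%), 109 higher (1.01%) and 268 lower in MM (2.48%), against 540.55 that the same threshold would give over 10811 independent features without any difference. In 118 features (1.09%) the 4 MM arrays did not overlap the 4 M arrays, 39 of them with MM above (0.361%) and 79 with MM below (0.731%). Over all features 5468 differences were positive (50.6%) and 5343 negative (49.4%), with a median of 0.00. The median standard error of a difference was 0.10, and the 95% interval lay within a 1.5-fold change for 94.6% of features and within a 2-fold change for 99.2%. The reference channel, which held the same RNA on all arrays, gave 334 features (3.09%) at an unadjusted p under 0.05, and the liver channel taken alone gave 314 (2.9%), with none past an adjusted p of 0.05 by limma in either. Values of a single channel were taken after normalization within arrays. They carry a correction fitted on both dyes together and are not independent of the other channel.

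NM_001013993 fell in MM. Its log2 ratio was 2.67, 2.69, 2.74 and 2.19 in M and 1.49, 1.72, 1.15 and 0.95 in MM. All 4 MM pools lay below all 4 M pools, and the lowest M pool was replicate 8. The difference was -1.25 ± 0.13 (SE), with a 95% interval of -1.55 to -0.95 and an adjusted p of 0.0473 by limma, which is a level 2.38-fold higher in M. It was -1.08 in slide row 1 and -1.42 in row 2. The transcript was well above background in liver on all 8 arrays but on none in the reference channel, so its ratio rests on a denominator near background, and in the liver channel alone the difference was -0.99. The call was close to the threshold: the adjusted p was 0.328 without the slide row as a block, 0.394 with slide row and column as blocks, 0.999 with all 16 arrays, 0.185 in the liver channel and 0.828 with the log ratio of the scanner software. Leaving out an array gave -1.33 to -1.11, with adjusted p between 0.0220 (without M replicate 7) and 0.330 (without MM replicate 1), and the call was lost without M replicates 5 or 6 or any of the 4 MM replicates. In unexposed litters the ratio was 2.18, 2.05, 3.13 and 1.38 in C and 1.06, 2.95, 2.29 and 2.30 in CC. The C and CC pools ranged from 1.06 to 3.13 and overlapped, and CC minus C was -0.03.

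XR_085654, a non-coding RNA accession, had the largest positive difference. Its log2 ratio was 0.34, 0.71, 0.19 and 0.79 in M and 1.93, 2.25, 1.50 and 1.66 in MM, so the groups did not overlap. It was well above background in liver on 2 of the 4 M arrays and on all 4 MM arrays, so it passed the background filter through MM alone, and its measured difference of 1.33 is given as a description with no test. That difference was 2.47 with the log ratio of the scanner software. The log2 ratio in unexposed litters was 0.34, 0.40, 1.43 and 1.11 in C and 0.95, 2.03, 0.83 and 1.21 in CC.

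**Figure D1:**
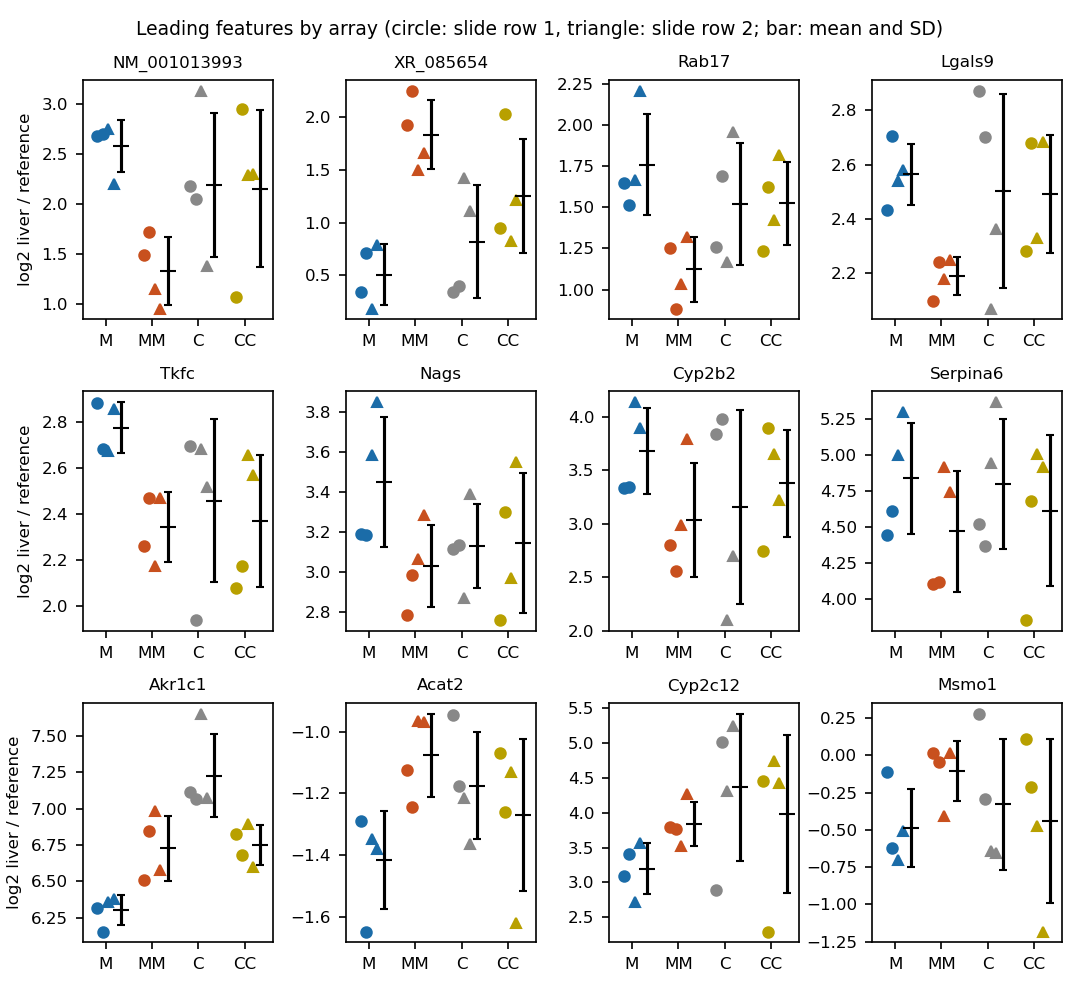
Log2 liver over reference ratio of 12 leading features in groups M, MM, C and CC (4 arrays each; circles are slide row 1 and triangles slide row 2, the bar is the mean with the SD). NM_001013993 lies lower in all 4 MM arrays than in all 4 M arrays (difference -1.25) and XR_085654 higher (1.33, with 2 of 4 M arrays well above background), while the 10 genes with symbols differ by 0.64 or less.

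Genes of the interferon response had mostly lower mean values in MM, by small amounts. Interferons signal through JAK kinases to transcription factors that bind the interferon-stimulated response element in the promoters of antiviral genes. Of 54 tested genes of the list 44 had lower and 10 higher means in MM, with a median difference of -0.10 against 0.00 over all features. None passed the adjusted threshold, and 11 were below an unadjusted p of 0.05, all of them lower in MM (2.48% of all features were). The effectors, the antiviral proteins themselves, had 23 of 25 lower, 9 of these at an unadjusted p under 0.05, and a median of -0.17. Antigen presentation genes had 15 of 20 lower and a median of -0.10, and receptors and signalling proteins 6 of 9 lower and -0.08. The list median stayed negative in every processing and left-out array tried, from -0.16 to -0.03, and was -0.03 in slide row 2, where 32 of 54 were lower. The count at an unadjusted p under 0.05 was 4 without MM replicate 2, 5 without M replicate 6 and 7 without M replicate 8, and 4 with the log ratio of the scanner software.

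Promoter windows are shown for the 6 genes with a window in the RefSeq table, of the 11 of the list with an unadjusted p under 0.05, because the response is defined by the element searched for in them. The letters GAAA, any 2 bases and GAAA again were searched on both strands from 250 bases before to 50 after each RefSeq start (assembly GRCr8). They were found in 14 of the 17 effectors that have a promoter in the table (82.4%), in 8 of 19 antigen presentation genes (42.1%) and in 1 of 7 receptors and signalling genes (14.3%), against 3.77% of all 27457 promoters and 3.21% of the 5976 tested genes with a window. Because the response is defined by this element, a high share was built into the list and says nothing about MM against M. Each line gives 200 bases before to 20 after the start, 5′ to 3′ along the gene, with the matched letters in capitals (TTTC, 2 bases and TTTC where the match is on the other strand).
Oas1a, chr12:41330266-41330485 (plus strand): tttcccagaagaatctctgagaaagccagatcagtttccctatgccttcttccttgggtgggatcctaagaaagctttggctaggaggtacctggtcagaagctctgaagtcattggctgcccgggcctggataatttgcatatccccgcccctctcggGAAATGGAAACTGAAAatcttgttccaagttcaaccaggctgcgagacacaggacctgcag
Isg20, chr1:142239859-142240078 (plus strand): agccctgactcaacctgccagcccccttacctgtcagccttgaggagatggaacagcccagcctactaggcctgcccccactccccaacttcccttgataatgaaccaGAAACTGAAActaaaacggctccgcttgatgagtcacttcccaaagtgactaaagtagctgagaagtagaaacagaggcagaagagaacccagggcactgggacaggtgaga
Ifi44, chr2:243303821-243304040 (minus strand): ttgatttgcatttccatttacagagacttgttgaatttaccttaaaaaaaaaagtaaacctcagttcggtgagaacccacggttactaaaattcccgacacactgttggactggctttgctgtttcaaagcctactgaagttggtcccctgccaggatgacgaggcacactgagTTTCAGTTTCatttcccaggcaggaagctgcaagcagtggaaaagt
Bst2, chr16:18254948-18255167 (minus strand): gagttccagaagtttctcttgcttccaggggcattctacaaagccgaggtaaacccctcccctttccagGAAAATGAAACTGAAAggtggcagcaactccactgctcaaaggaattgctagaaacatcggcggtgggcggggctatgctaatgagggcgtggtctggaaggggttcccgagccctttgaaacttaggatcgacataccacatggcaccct
Psmb8, chr20:4657012-4657231 (minus strand): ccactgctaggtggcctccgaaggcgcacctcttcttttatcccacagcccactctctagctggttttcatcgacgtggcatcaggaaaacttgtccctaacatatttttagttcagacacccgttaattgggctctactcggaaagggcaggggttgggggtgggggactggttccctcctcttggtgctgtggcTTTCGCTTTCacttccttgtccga
RT1-S3, chr20:2675328-2675547 (plus strand): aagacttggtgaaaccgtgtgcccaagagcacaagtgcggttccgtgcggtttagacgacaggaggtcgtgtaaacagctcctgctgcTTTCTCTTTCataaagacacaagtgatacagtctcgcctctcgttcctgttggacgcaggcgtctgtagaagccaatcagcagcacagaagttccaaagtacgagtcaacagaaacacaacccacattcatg
Counted from the start, the match begins at -41 in Oas1a, where a pair of matches overlaps, at -92 in Isg20, at -112 in RT1-S3 and at -4 in Psmb8. A match describes the window and does not show that it was bound.

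Oas1k and Oas1a, which belong to the family that makes the 2-5A activator of RNase L, had the largest differences of the list. Oas1k gave log2 ratios of 1.29, 2.30, 2.17 and 2.06 in M and 1.70, 0.70, 0.96 and 1.46 in MM. M replicate 5 was low among the M pools and lay inside the MM range, and the difference was -0.75 ± 0.26 (SE) with an unadjusted p of 0.0169. Oas1a gave 1.70, 2.65, 2.79 and 2.54 in M and 2.16, 0.99, 2.24 and 1.71 in MM, a difference of -0.64 ± 0.27. MM replicate 2 was lowest for both genes. Rtp4, an interferon-induced chaperone, gave 2.61, 3.09, 2.37 and 2.21 in M and 2.05, 2.22, 1.58 and 2.36 in MM with a difference of -0.51 ± 0.18, and MM replicate 3 was the lowest pool. Usp18, the protease that removes Isg15 from proteins and restrains the receptor, gave 0.73, 1.40, 1.31 and 1.35 in M and 0.84, 0.60, 1.11 and 0.71 in MM, a difference of -0.38 ± 0.15 (-0.15 at its other probe). The other M pools lay above all MM pools, and M replicate 5 did not. Dhx58 (LGP2), a helicase that senses viral RNA, was the member whose pools did not overlap, 1 of 54, against 0.731% of all features with MM below. It gave 0.66, 0.64, 0.65 and 0.73 in M and 0.43, 0.43, 0.45 and 0.55 in MM, a difference of -0.21 ± 0.07. Ifi27l2b differed by -0.41 ± 0.13 (-0.21 ± 0.14 at its other probe), Isg20, an exonuclease of viral RNA, by -0.28 ± 0.10, Bst2, which tethers budding virions, by -0.25 ± 0.11 and Ifi44 by -0.20 ± 0.08. Groups overlapped in each of these.

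Among antigen presentation genes, RT1-S3, a class I molecule, gave 2.0, 2.29, 2.35 and 2.30 in M and 2.12, 1.64, 2.02 and 1.76 in MM, and its difference was -0.35 ± 0.12 (SE). Psmb8, an immunoproteasome subunit, gave 0.73, 0.93, 0.37 and 0.54 in M and 0.36, 0.22, 0.28 and 0.44 in MM and differed by -0.32 ± 0.11, with -0.54 in slide row 1 and -0.10 in row 2. RT1-CE13, a class I gene outside the list, gave 0.56, 0.73, 0.72 and 0.74 in M and 0.46, 0.36, 0.34 and 0.40 in MM, and the 4 MM pools lay below the 4 M pools (difference -0.30 ± 0.08). Of the signalling members, Irf9 differed by -0.20 ± 0.11 and Irf7 by -0.25 ± 0.20. The MM minus M differences of the list can be set beside those of the unexposed litters, where the median CC minus C was -0.01. For 5 of the 54 genes the difference between the contrasts had an unadjusted p under 0.05 (4.25% of all features did) and none passed adjustment. RT1 genes are near-identical class I copies, and the Oas1 genes are close paralogs, so their probes may read each other's transcripts.

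**Figure D2:**
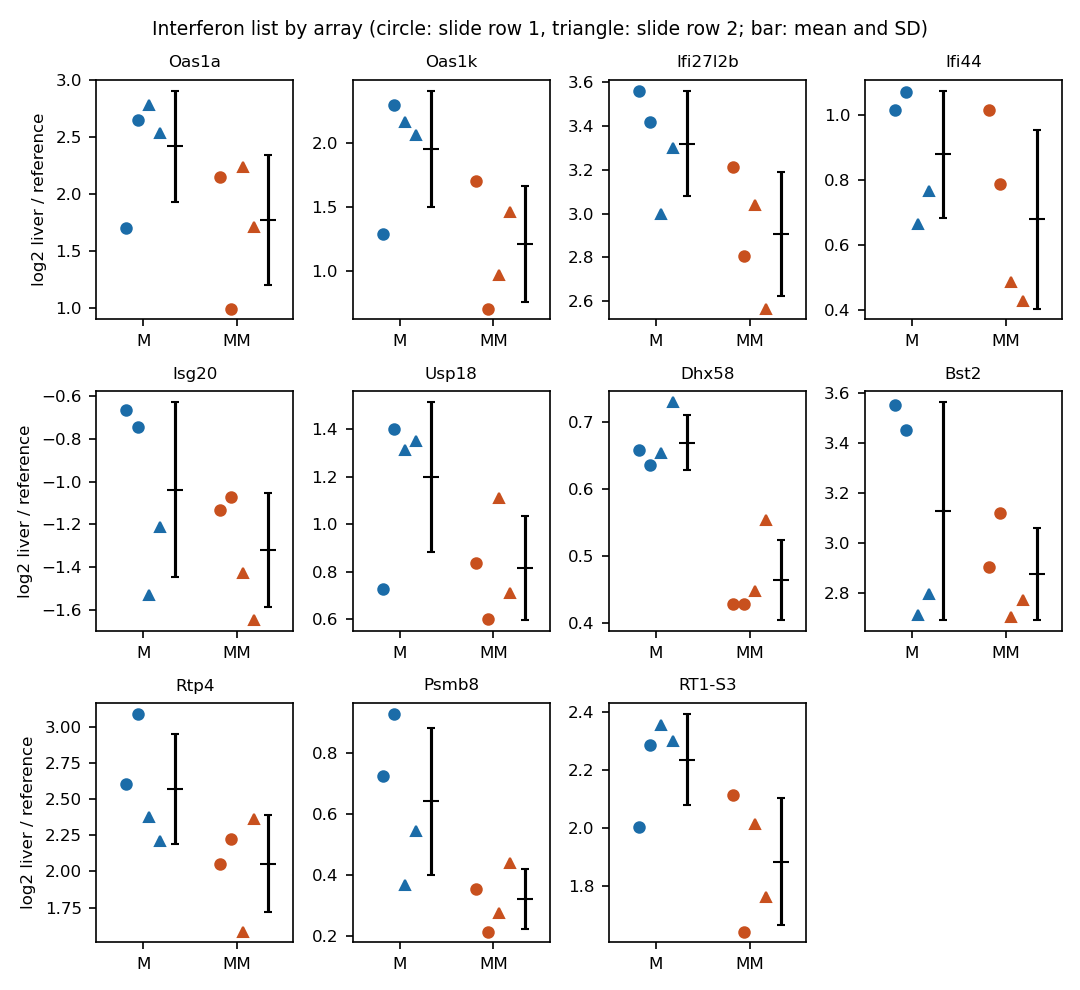
Log2 liver over reference ratio of 11 interferon-response genes on each of the 4 M and 4 MM arrays (circles slide row 1, triangles slide row 2, bars mean and SD). These were picked from the 54 tested genes of the list by an unadjusted p under 0.05 on these same arrays, and 10 of the 54 had higher means in MM. Dhx58 is the gene of the panel whose MM arrays all lie below the M arrays (0.731% of all features do), and in the others the groups overlap.

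Immune cell markers were looked at beside this list, since resident and circulating leukocytes carry many of its genes. Of 17 Kupffer cell and macrophage markers 12 had lower means in MM and 2 of these an unadjusted p under 0.05 (2.48% of all features did on that side), with a median of -0.07: C1qc gave 3.52, 3.61, 3.30 and 3.52 in M and 3.41, 3.07, 3.05 and 3.40 in MM (difference -0.26 ± 0.11) and Slc11a1 -0.31, -0.34, -0.56 and -0.42 in M and -0.77, -0.80, -0.56 and -0.48 in MM (difference -0.25 ± 0.10). On the scale of deviations from each gene's mean over the 8 arrays, the median of the macrophage markers was -0.06 to 0.12 on the M arrays and -0.34 to 0.05 on the MM arrays, with MM replicate 2 lowest. On the same scale the interferon list was 0.00 to 0.09 on M and -0.09 to -0.03 on MM arrays, again with MM replicate 2 lowest. Without that array the macrophage median was 0.01 and the interferon median -0.08, with 40 of 54 genes lower. Of the 17 T and NK cell markers, 6 were tested and their median was 0.06. Among them Cd247 was well above background on 4 of the 8 arrays, so it passed the filter through a single group. Cd3d, Nkg7 and Gzma passed that mark on all 8 arrays, and the median of these 3 was -0.02. Cd3e, Cd4, Cd8a and Lck were not well above background on any of the 8 arrays. Neutrophil markers were tested for 2 genes, S100a9 (-0.19 ± 0.11) and Camp (-0.07 ± 0.18). In whole liver, fewer cells of a type and less RNA per cell cannot be told apart, and the part of macrophage number in the interferon differences was not tested.

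Enzymes of cholesterol synthesis leaned the other way. Hepatocytes make cholesterol from acetyl-CoA through mevalonate and squalene under control of the sterol-sensing factor SREBP2. Of 28 tested genes 19 had higher and 9 lower means in MM, with a median of 0.11; 6 had an unadjusted p under 0.05, all higher in MM (1.01% of all features were), and none passed the adjusted threshold. The split by steps was 6 of 8 higher for the mevalonate steps (3 with an unadjusted p under 0.05, median 0.18), 8 of 12 from squalene to cholesterol (3, median 0.15) and 5 of 8 for control and uptake (none, median 0.05). Without MM replicate 4 the median was 0.03, with 16 of 28 higher, and without MM replicate 3 it was 0.16. The count of genes higher at an unadjusted p under 0.05 was 1 without MM replicate 4 or without M replicate 6, and 3 without MM replicate 1 or without M replicate 7.

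Acat2, which joins acetyl-CoA units at the head of the path, gave -1.29, -1.65, -1.35 and -1.38 in M and -1.13, -1.25, -0.97 and -0.97 in MM. All MM pools lay above all M pools, and the difference was 0.34 ± 0.09 (SE) with an unadjusted p of 0.00494. Hmgcs1, which makes HMG-CoA, gave 0.89, 0.51, 0.96 and 0.38 in M and 1.09, 0.49, 1.65 and 1.52 in MM, with both MM pools of slide row 2 above all others. Its difference of 0.50 ± 0.21 was 0.09 in slide row 1 and 0.91 in row 2. Idi1, the isopentenyl diphosphate isomerase, gave 0.52, 0.09, -0.25 and 0.09 in M and 0.62, 0.48, 0.07 and 0.62 in MM and differed by 0.34 ± 0.15. Farther along, Sqle, the squalene epoxidase, gave -1.15, -1.72, -1.65 and -1.41 in M and -1.10, -1.21, -1.26 and -0.93 in MM and differed by 0.36 ± 0.14. Msmo1, a sterol C4-methyl oxidase, gave -0.11, -0.62, -0.71 and -0.51 in M and 0.01, -0.05, -0.40 and 0.01 in MM, with MM replicate 3 below the other MM pools, and differed by 0.38 ± 0.13. Cyp51, the lanosterol demethylase, gave 0.11, -0.12, 0.08 and -0.07 in M and 0.03, 0.12, 0.36 and 0.40 in MM and differed by 0.23 ± 0.10. Of the control genes, the SREBP retention proteins Insig1 and Insig2 differed by -0.24 ± 0.19 and -0.24 ± 0.13. In the unexposed litters the list median of CC minus C was -0.10, and for 5 of 28 genes the difference between the contrasts had an unadjusted p under 0.05 (4.25% of all features did). The sterol element TCACNCCAC was in 1.13% of all promoter windows and in none of the 20 windows of the list, which says only that these letters are absent there.

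**Figure D3:**
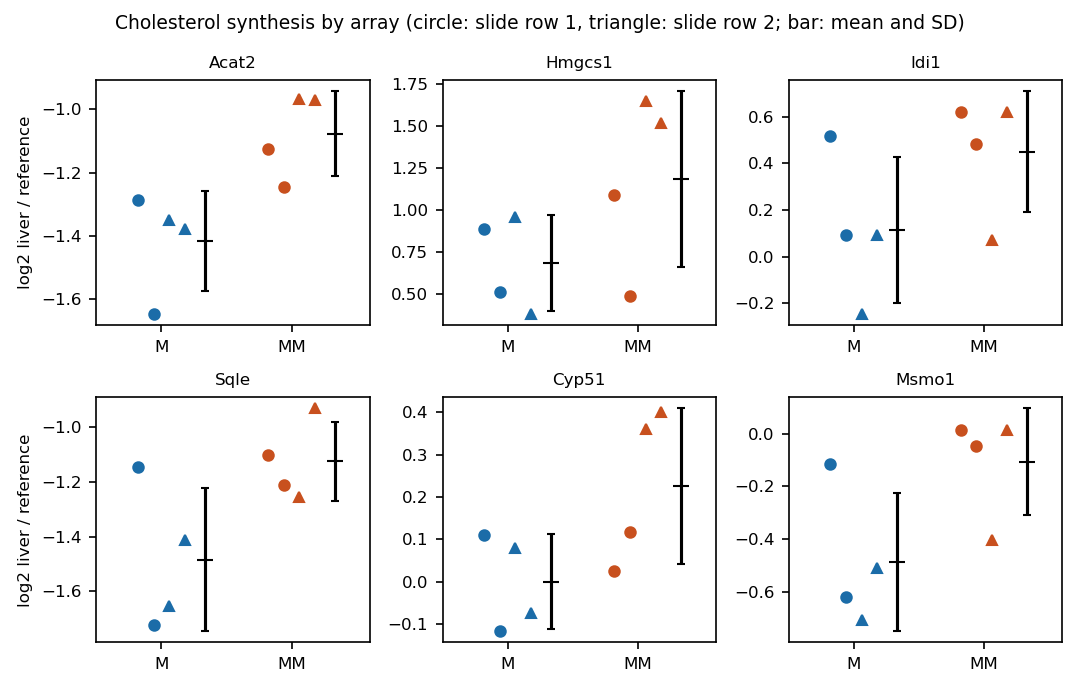
Log2 liver over reference ratio of 6 cholesterol genes on each of the 4 M and 4 MM arrays (circles slide row 1, triangles slide row 2, bars mean and SD). All genes shown had higher means in MM, while 9 of the 28 tested genes of the list had lower means. Acat2 does not overlap between the groups, and Hmgcs1 is highest in the MM arrays of slide row 2.

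Fatty acid oxidation genes were lower more often than higher. Of 46 tested genes 34 had lower means in MM, with a median of -0.09, though with scale normalization between arrays 24 were higher and 22 lower and the median was 0.01. The median was -0.03 without MM replicate 3 and -0.05 without MM replicate 2. A single member, 1 of 46, had an unadjusted p under 0.05 and was lower in MM (2.48% of all features were). It was Cpt1a, which brings long-chain fatty acids into mitochondria. Cpt1a gave 2.50, 2.41, 2.52 and 3.20 in M and 2.43, 2.14, 2.11 and 1.98 in MM, with M replicate 8 far above the rest, and its difference was -0.49 ± 0.18 (SE), -0.17 in slide row 1 and -0.82 in row 2. Acaa2, the last step of a mitochondrial round, differed by -0.21 ± 0.09, and the PPARalpha-regulated genes Cyp4a2, Pex11a and Fabp1 by -0.16 ± 0.13, -0.14 ± 0.11 and 0.16 ± 0.09. In triglyceride assembly all 5 tested genes had lower means (49.4% of all features did), 2 of them with an unadjusted p under 0.05 (2.48% of all features). Agpat2, which makes phosphatidic acid, gave 1.41, 1.43, 0.96 and 1.09 in M and 0.94, 1.21, 0.42 and 0.99 in MM, a difference of -0.33 ± 0.12. Mttp, which loads lipid onto apolipoprotein B, gave 3.80, 3.23, 3.02 and 2.93 in M and 3.28, 3.40, 1.81 and 2.58 in MM and differed by -0.47 ± 0.20, with MM replicate 3 the lowest pool. Fatty acid synthesis enzymes split 7 higher to 6 lower; Scd differed by 0.11 ± 0.20 and Elovl6 by 0.34 ± 0.20.

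Targets of the receptors that the mixture's components activate were examined next. Of 27 tested CAR and PXR genes 21 had lower means in MM and the median was -0.06; it was 0.15 in slide row 1 and -0.20 in row 2, and with the scanner software's log ratio or with scale normalization 17 of 27 were higher. Leaving out an array moved it between -0.14 (without MM replicate 1) and -0.02 (without MM replicate 3). Cyp2b2, the phenobarbital-inducible enzyme, had the lowest p of the list and gave 3.34, 3.35, 4.13 and 3.90 in M and 2.80, 2.56, 2.99 and 3.79 in MM. The MM pool nearest M was replicate 4, inside the M range. Its difference was -0.64 ± 0.16 (SE), about -0.66 in row 1 and -0.62 in row 2, and it was -0.29 at the gene's other probe. Cyp2b3 differed by 0.17 ± 0.08 and Cyp3a2, a steroid hydroxylase of adult males, gave 8.70, 8.20, 9.04 and 9.14 in M and 9.03, 8.28, 8.85 and 8.45 in MM and differed by -0.12 ± 0.20. The receptors gave -0.24 ± 0.34 (Nr1i3) and -0.05 ± 0.12 (Nr1i2). Nr1i3 stood at 3.25 in MM replicate 1 and at 1.64 to 1.83 in the other MM pools. Cyp2b2 shares much sequence with other Cyp2b genes, and its probes may not separate them. Of the 7 tested genes of the aryl hydrocarbon receptor list, 5 had higher means and the median was 0.02. That median was 0.03 in slide row 1 and -0.10 in row 2. Without MM replicate 1 it was -0.04, with 2 of 7 higher. Where all 8 arrays had to be well above background, 6 genes of this list remained, 4 of them higher and none with an unadjusted p under 0.05. Nqo1, a quinone reductase, gave -1.24, -1.54, -0.83 and -0.93 in M and -1.25, -1.10, -0.63 and -0.66 in MM with a difference of 0.23 ± 0.09, and Cyp1a2 differed by 0.02 ± 0.13.

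Aldo-keto reductases of the Akr1c group, which reduce steroids and bile acid precursors, were split. Akr1c1 gave 6.32, 6.16, 6.36 and 6.38 in M and 6.51, 6.84, 6.98 and 6.58 in MM. All MM pools lay above all M pools, and the difference of 0.43 ± 0.11 (SE) had an unadjusted p of 0.00373. Akr1c3 gave 2.69, 2.62, 3.21 and 3.32 in M and 2.56, 2.34, 2.66 and 2.77 in MM, with MM below M within each slide row, a difference of -0.38 ± 0.10 (-0.16 at its other probe). Akr1c2 varied most, at 3.66, 5.50, 5.38 and 6.25 in M and 5.91, 6.86, 6.32 and 5.82 in MM, with M replicate 5 far below the rest, and differed by 1.03 ± 0.46. Akr1c13 gave 0.97, 0.93, 1.71 and 2.86 in M and 2.34, 3.14, 2.65 and 1.89 in MM and differed by 0.89 ± 0.40, which was 1.79 in slide row 1 and -0.01 in row 2. In the list of Akr1 members, 5 of 13 tested genes had higher means, 3 with an unadjusted p under 0.05 (1.01% of all features). The other 8 had lower means, 1 with such a p (2.48%). Akr1c2 and Akr1c13 were near that threshold, with an unadjusted p of 0.0485 and 0.0497 by limma. The count of 3 was 1 without the slide row block, in the liver channel alone or with the scanner ratio. Where all 8 arrays had to be well above background it was 2 of 12. It stayed 3 with all 16 arrays and with scale normalization. For Akr1c1 the reference was well above background on 1 of 8 arrays and for Akr1c3 on none, and the liver channel alone gave 0.52 and -0.26. The Akr1c genes are close paralogs, and their probes may cross-hybridise.

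Sex-biased liver genes follow the pulse pattern of growth hormone, which is set around puberty. Growth hormone signalling genes had a median of 0.01 over 10 genes and the male-biased genes 0.01 over 11. Cyp2c11, the main male-specific P450, gave 7.38, 7.62, 7.46 and 7.39 in M and 7.89, 7.60, 7.32 and 7.34 in MM (difference 0.08 ± 0.11), Cyp2c13 differed by 0.22 ± 0.11 and Igf1 by 0.11 ± 0.11. Of 6 tested female-biased genes 2 had higher and 4 lower means, with a median of -0.29. On each side 1 had an unadjusted p under 0.05 (1.01% of all features were higher and 2.48% lower). Sult2a6, a sulfotransferase, had the lowest difference at -0.60 ± 0.52, with -1.70 in slide row 1 and 0.50 in row 2. Cyp2c12 gave 3.09, 3.41, 2.73 and 3.57 in M and 3.80, 3.76, 3.51 and 4.27 in MM, a difference of 0.64 ± 0.20 (SE) with an unadjusted p of 0.0115; only MM replicate 3 lay inside the M range. Srd5a1, the steroid 5alpha-reductase, gave 3.34, 3.60, 2.42 and 2.77 in M and 2.75, 3.15, 1.74 and 2.37 in MM, with MM below M within each slide row, and differed by -0.53 ± 0.16, and by -0.53 at its other probe too. The reference channel was not well above background for Cyp2c12 on any array, and the liver channel alone gave 0.64.

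No tested member of the glucocorticoid list passed the adjusted threshold. Of its 30 tested genes 9 had higher and 21 lower means, none with an unadjusted p under 0.05, and the median was -0.07, 0.09 in slide row 1 and -0.14 in row 2. The receptor gene Nr3c1 was well above background on at most 3 of the 8 arrays and was not tested. Fkbp5, its feedback chaperone, gave -0.25, -0.66, -0.34 and 0.41 in M and -0.25, -0.33, -0.03 and -0.54 in MM (difference -0.08 ± 0.19). Tsc22d3 (GILZ) gave 2.24, 1.38, 2.57 and 2.35 in M and 1.28, 1.80, 3.21 and 1.83 in MM, with a spread inside each group above any difference between them (-0.10 ± 0.29). Pck1 and Tat, enzymes of gluconeogenesis and tyrosine breakdown, differed by -0.13 ± 0.11 and -0.27 ± 0.22, and G6pc1 by -0.16 ± 0.12, or by -0.50 ± 0.14 (SE) with an unadjusted p of 0.00461 at its other probe. With the mean of all probes of a name, 1 gene of the list was lower at an unadjusted p under 0.05. In that setting 387 of 10816 features had such a p in either direction. Outside the list, Serpina6, the corticosteroid-binding globulin of plasma, gave 4.45, 4.61, 5.00 and 5.29 in M and 4.10, 4.12, 4.92 and 4.74 in MM; the ranges overlapped because row 2 stood higher, MM lay below M within each row, and the difference was -0.37 ± 0.09 (SE) with an unadjusted p of 0.00295. Clock genes had 8 of 14 higher with a median of 0.00: Bmal1 differed by -0.30 ± 0.19 and Per2 by 0.13 ± 0.12, while Dbp, an output gene with a wide daily swing, ran from -0.07 to 2.28 over the 8 pools and differed by 0.06 ± 0.47.

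Bile acid genes had lower means in 15 of 20 cases, with a median of -0.15, -0.01 in slide row 1 and -0.26 in row 2. Without M replicate 8 the median was -0.02 with 12 of 20 lower. Cyp8b1, which makes cholic acid, gave 4.53, 4.29, 4.29 and 4.61 in M and 4.18, 4.17, 4.13 and 4.26 in MM and differed by -0.25 ± 0.10 (SE), but by 0.36 with the scanner software's log ratio. Slco1a1, an uptake transporter of the blood side, gave 4.49, 4.51, 4.72 and 4.68 in M and 4.46, 4.24, 4.07 and 4.45 in MM, a difference of -0.29 ± 0.11. In both genes the MM pools lay below the M pools. Cyp7a1, the rate-limiting enzyme of bile acid synthesis, gave 3.92, 1.83, 4.40 and 4.06 in M and 3.81, 3.66, 3.29 and 2.87 in MM, with M replicate 6 far below the others, and differed by -0.14 ± 0.49. Slc10a1 (NTCP) differed by -0.16 ± 0.08 and Abcg5, a sterol exporter, by -0.35 ± 0.27.

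Plasma and acute phase proteins were mixed, with 16 of 30 higher and a median of 0.02, which was -0.13 in the liver channel and 0.20, with 21 of 30 higher, with scale normalization between arrays. Fgl1, a fibrinogen-related hepatokine, gave 5.91, 5.75, 5.89 and 6.80 in M and 5.39, 5.51, 5.13 and 5.46 in MM. The groups did not overlap, M replicate 8 stood highest by a wide gap, and the difference was -0.72 ± 0.20 (SE) with an unadjusted p of 0.00612; the reference was not well above background on any array. Crp differed by -0.28 ± 0.12 (0.07 with the scanner software's log ratio), Stat3, which carries the interleukin 6 signal, by -0.27 ± 0.10, and C3 by 0.18 ± 0.08, which became -0.05 in the liver channel.

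The other genes with the lowest p among named features came from several functions. Lower in MM without overlap were Rab17, a small GTPase of polarised epithelia, at 1.64, 1.51, 1.66 and 2.21 in M and 1.25, 0.89, 1.04 and 1.32 in MM (difference -0.63 ± 0.14 (SE)), and Lgals9, galectin-9, at 2.43, 2.70, 2.54 and 2.58 in M and 2.10, 2.24, 2.18 and 2.25 in MM (-0.37 ± 0.09). Tkfc, which phosphorylates glyceraldehyde from fructose, gave 2.89, 2.69, 2.68 and 2.86 in M and 2.26, 2.47, 2.17 and 2.47 in MM (-0.43 ± 0.10), also without overlap. Tcea3, a transcription elongation factor, gave 1.66, 2.19, 1.86 and 1.86 in M and 1.45, 1.45, 1.21 and 1.61 in MM (-0.46 ± 0.13), again without overlap. Nags, which makes the activator of the urea cycle, gave 3.19, 3.18, 3.59 and 3.85 in M and 2.78, 2.99, 3.06 and 3.29 in MM; MM lay below M within each slide row, and the difference was -0.42 ± 0.10. Rhbg, an ammonia transporter, differed by -0.55 ± 0.14, Enpp4 by -0.47 ± 0.12 and Ogfod2 by -0.29 ± 0.08. Higher in MM without overlap were Terc, the telomerase RNA, at -1.39, -1.47, -1.43 and -1.39 in M and -1.01, -0.99, -1.27 and -1.31 in MM (0.27 ± 0.09 (SE)), and Mag at 1.22, 1.23, 1.28 and 0.89 in M and 1.51, 1.44, 1.39 and 1.34 in MM (0.26 ± 0.09). Acsm3, a medium-chain acyl-CoA synthetase, gave 1.16, 1.47, 1.82 and 1.81 in M and 2.36, 1.47, 2.69 and 2.01 in MM and differed by 0.57 ± 0.20. Slc20a1, a phosphate transporter, differed by 0.28 ± 0.10, Sdhaf2, an assembly factor of succinate dehydrogenase, by 0.24 ± 0.08, Psme4, a proteasome activator, by 0.24 ± 0.08 (0.03 at its other probe), Rpap1 by 0.24 ± 0.08 and Igh-6l1 by 0.27 ± 0.09. The adjusted p by limma was 1.00 for each of these genes. Where a gene with an unadjusted p under 0.05 had further probes that passed the same filter, 24 of those 26 probes (92.3%) shared its sign, against 625 of 1003 (62.3%) over all tested names. The probes of a gene read the same pools, and these genes were chosen by their p on these arrays. A higher share is built into that choice, so it is no support for the genes.

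Markers of other liver cells gave the following values. Sinusoidal endothelium had 5 of 7 markers lower and a median of -0.08 (0.00 in the liver channel). Eng (endoglin) gave 1.29, 1.38, 1.45 and 1.75 in M and 1.14, 0.83, 0.71 and 1.27 in MM without overlap, a difference of -0.48 ± 0.14 (SE), and Lyve1 differed by -0.30 ± 0.14. Gpr182 was well above background on 2 of the 4 MM arrays, so it passed the filter through M alone. Its difference of -0.25 is given as a description with no test. Where all 8 arrays had to be well above background, 4 of 6 endothelial markers were lower with a median of -0.05. Stellate cell and fibroblast markers had 10 of 13 higher with a median of 0.03. That count was 3 of 13 within slide row 1 and 6 of 13 with array weights. Cholangiocyte markers had 4 of 4 higher with a median of 0.13. Of these, Krt7 was well above background on 5 of the 8 arrays, Krt19 on 6 and Epcam on 7. With that mark required on all 8 arrays, 1 cholangiocyte marker remained, at 0.04. Erythroid genes had the largest median of any list, 0.38, with 7 of 8 higher and none at an unadjusted p under 0.05. Their median deviation on the MM arrays ran from -0.46 (replicate 3) to 0.98 (replicate 2), and on the M arrays from -0.36 to 0.16, so MM replicate 2 held the value, and without it the median was 0.15. Hbb-b1, a beta globin, was 6.64 in MM replicate 2 and 5.09 to 5.89 in the other 7 pools. Of 10 pancreatic markers 8 passed the background mark on no array.

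The remaining pathway lists had medians between -0.08 and 0.09. Ribosomal proteins had 61 of 73 higher with a median of 0.07, but 37 of 73 in the authors' value table and 26 of 73 with a normexp offset of 16. Its median was 0.03 without M replicate 8 or without MM replicate 3. Cell cycle genes had 27 of 32 higher with a median of 0.09, but 16 of 32 without M replicate 8, 18 of 32 without MM replicate 3 and 14 of 32 with array weights. Oxidative phosphorylation had 37 of 69 higher and a median of 0.01, with Atp5f1b, a catalytic subunit of ATP synthase, at -0.25 ± 0.09 and Uqcrfs1, the Rieske protein of complex III, at -0.23 ± 0.09. One-carbon metabolism and DNA methylation had 15 of 26 higher and a median of 0.03; Mat1a, which makes the methyl donor, differed by 0.10 ± 0.09, Sardh by -0.38 ± 0.15, and Dnmt1 was not well above background on any of the 8 arrays. All 3 tested metallothioneins had lower means, and Mt1 gave 2.45, 2.64, 2.62 and 3.49 in M and 3.31, 2.27, 2.80 and 2.11 in MM, with M replicate 8 and MM replicate 1 high, so the groups overlapped (difference -0.18 ± 0.29). Thyroid handling genes had 5 of 13 higher, with Dio1, the liver deiodinase, at -0.35 ± 0.21. Immediate early genes had 8 of 11 higher with a median of 0.09, which was -0.02 with 4 of 11 higher without MM replicate 1. Jun, one of them, gave -1.89, -1.76, -2.15 and -2.29 in M and -0.10, -1.66, -1.60 and -2.07 in MM, with MM replicate 1 far above all others, and differed by 0.66 ± 0.29. The 7 tested urea cycle genes had a median of -0.08, which was 0.17 in slide row 1 and -0.26 in row 2, 0.03 without M replicate 8, 0.01 without MM replicate 3 and -0.15 without MM replicate 1. Medians of the heat shock, retinoid and insulin lists were 0.02, 0.00 and -0.04.

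**Figure D4:**
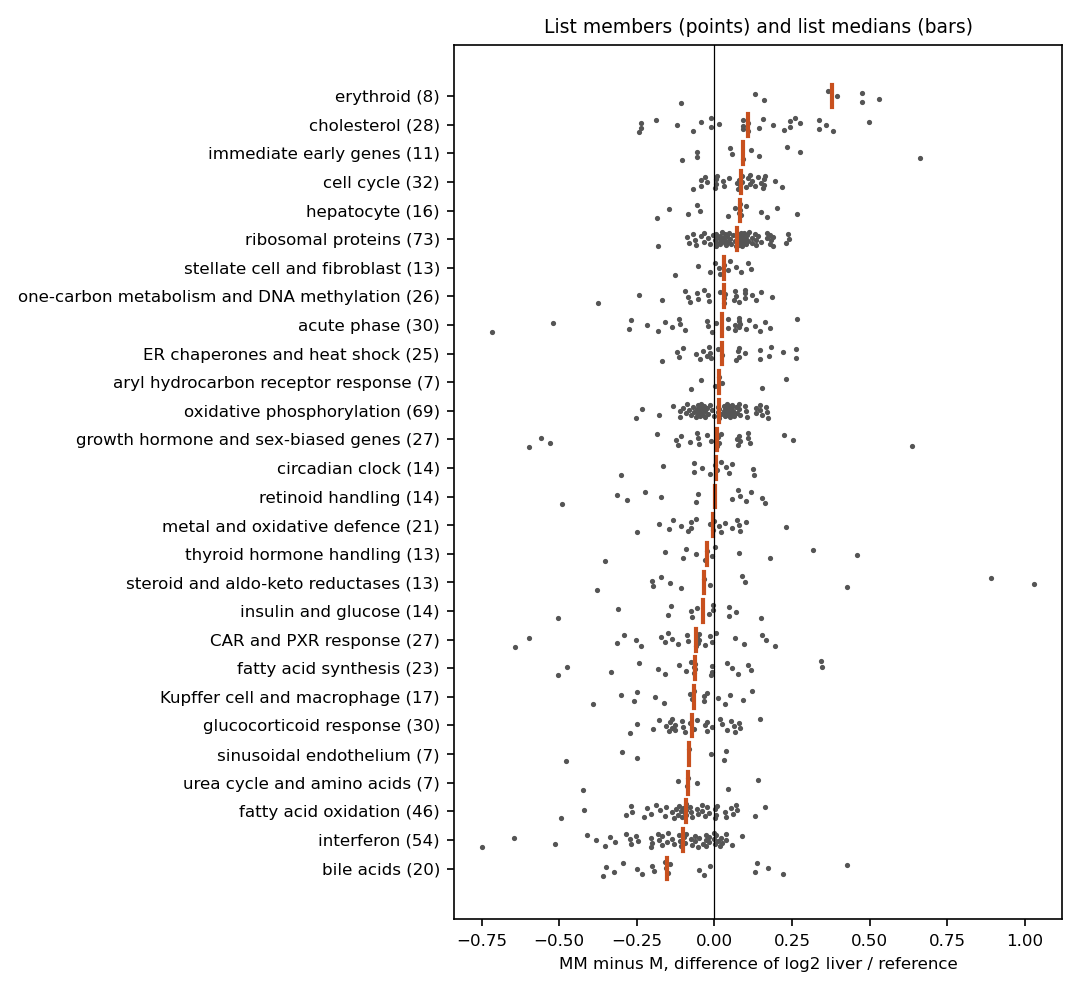
MM minus M difference (log2) of every tested member of the gene lists with at least 7 tested members, each point a gene and each bar the list median. The interferon list lies mostly below 0 (median -0.10) and the cholesterol list mostly above it (median 0.11), while the medians of the other lists shown run from -0.15 (bile acids) to 0.38 (erythroid).

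The slide rows, each with 2 pools of either group, gave separate estimates of the same contrast. Across the 10811 features the row 1 and row 2 differences had a Pearson correlation of -0.03 and a Spearman correlation of -0.02, a description over features that share arrays and are not independent. The sign was the same in both rows for 5333 features (49.3%). In the interferon list 29 of 54 genes had the same sign in both rows, with medians of -0.16 in row 1 and -0.03 in row 2, and in the cholesterol list 16 of 28, with medians of 0.05 and 0.28. At an unadjusted p under 0.05 there were 542 features within row 1 (5.01%) and 315 within row 2 (2.91%). On this measure 11 interferon genes were lower within row 1 (3.06% of all features) and 4 within row 2 (2.18%), with none higher in either row. Of the cholesterol genes, none was higher and 2 were lower within row 1 (1.95% and 3.06% of all features), and 6 were higher and none lower within row 2 (0.731% and 2.18%).

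**Figure D5:**
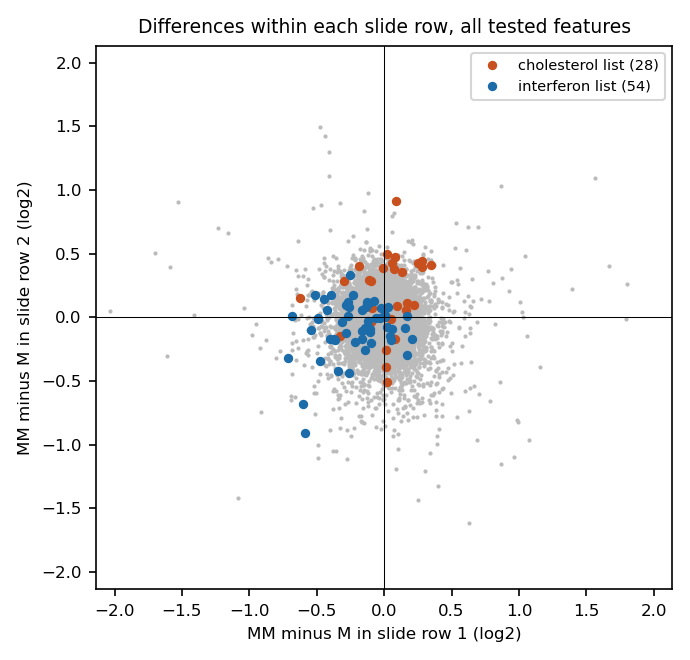
MM minus M difference (log2) in slide row 1 (x axis) against slide row 2 (y axis), 2 arrays of each group in a row; grey points are all 10811 tested features, coloured points the cholesterol and interferon lists. The cloud has no slope (Pearson -0.03), cholesterol genes spread upward on the row 2 axis and interferon genes leftward on the row 1 axis.

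Whether the response to fostering differed between exposed and unexposed litters was tested as MM minus M less CC minus C over all 16 arrays. No feature passed an adjusted p of 0.05 by limma (smallest 0.290), and 460 had an unadjusted p under 0.05 (4.25%). Ednra, a receptor for endothelin on vascular and stellate cells, ranked first. It was well above background on all 4 M arrays and on 2 of the 4 MM arrays, so it passed the filter through M alone and its values are a description with no test. Its ratios were 0.93, 1.28, 0.81 and 0.81 in M and 0.32, 0.59, 0.35 and 0.60 in MM, and 0.90, 0.74, 0.37 and 0.75 in C and 1.24, 1.50, 0.96 and 1.28 in CC. MM lay below M without overlap, CC minus C was 0.56, and the difference of the contrasts was -1.05. Of the other genes named here, the lowest p of this test belonged to Akr1c1 (difference of contrasts 0.90 ± 0.19), Rpap1 (0.43 ± 0.10) and Eng (-0.77 ± 0.21). Exposed and unexposed arrays lay on different slides, so the slide cannot be told apart from exposure in the levels, while each contrast was made within a slide.

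The pools of a group also differed among themselves. The median SD between arrays of a group within slide rows was 0.12 in M and 0.14 in MM, and 6277 features (58.1%) had the larger SD in MM. Acot5, an acyl-CoA thioesterase of peroxisomes, led the genes that varied within both groups, at 4.82, 2.48, 4.57 and 4.03 in M and 2.10, 4.21, 2.21 and 4.40 in MM. Its highest and lowest pools occurred in both groups, and the difference was -0.75 ± 0.64. Klkb1 (plasma kallikrein), Slc13a5 (a citrate transporter), Retsat and the transcription factors Onecut1 and Hhex were among those that followed, with SDs within rows between 0.64 and 1.20 in either group.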

How the data were processed

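Liver RNA of the 8 M and MM pools (and 8 C and CC pools) was labelled with Cy5 and hybridised with a Cy3 universal reference on Agilent 2-colour arrays, with no dye swap, per the labels. The authors deposited scanner files made with Agilent Feature Extraction (version 11.0.1.1, array design 028279, annotation build rn4), per the file headers. The intensity values are median pixel signals of the spot and its surroundings in each channel on a linear scale, made by the scanner software and deposited by the authors. The log10 ratio of liver over reference in the same files was computed by that software from background-corrected, dye-normalized signals, as deposited by the authors. The authors also deposited a value table of log2 ratios. Its columns correlated at 0.989 to 0.995, with slopes of 0.979 to 0.994, with loess-normalized ratios made without background subtraction; its column medians were -0.04 to -0.03, and no source used here says how it was centred. Its direction was liver over reference.

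From the intensities, background was corrected with normexp (offset 50), arrays were normalized by loess with control spots at weight 0, and spots flagged as outliers were left out, all in limma 3.58.1 (R 4.3.3). For single channels the average log intensity was quantile-normalized between arrays, and each channel was rebuilt from it and the loess-normalized ratio. The design had foreseen scanner spot signals without naming mean or median; the medians were used. Accessions were named through RefSeq (GRCr8): 18005 of 30367 probes matched a current symbol, and the brightest probe stood for a name. The fit (lmFit and eBayes) held group and slide row over 8 arrays, with 5 residual degrees of freedom, and calls used a Benjamini-Hochberg adjusted p under 0.05. The difference of contrasts was fitted on all 16 arrays with the row within each slide.

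The comparison and the gene lists (23 pathway lists and 11 marker lists, 702 of 939 entries tested) were chosen with earlier results of these data known, so lists are described by counts and medians without a set test. Genes were named by this rule: called features, the 12 lowest p in each direction among genes with a symbol, up to 3 genes with the lowest p for each role in a list, and 25 genes of set interest. Rtp4, Isg20, Usp18, Ifi44, Oas1a, Bst2, Akr1c13, XR_085654 and the genes named for their spread between pools were chosen after their values were seen. The fit was tested on simulated data. Alternatives covered blocks, arrays, channel, scanner ratio, value table, background, scaling, dim-probe filter, probe choice, weights, prior, single rows and left-out arrays. The number of arrays limits the precision. Some genes are not reported here.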

Additional observations from a re-analysis of the deposited data

Results flagged for a closer look

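For 29 of 410 combinations of a named gene and a group, 1 of the 4 pools stood apart from the other 3: its gap to the nearest pool, as a share of the group's range, was above the 95% critical value of Dixon's test. Chance marks about 1 in 20 groups, which is 20.5 of 410. By pool the count was 8 for M replicate 8, 7 for MM replicate 3, 5 for MM replicate 4, 3 each for M replicate 5 and MM replicate 1, 2 for M replicate 7 and 1 for MM replicate 2. Values are log2 ratios of liver over reference.

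M replicate 8 stood apart for NM_001013993 at 2.19 (other 3 at 2.67 to 2.74), Mag at 0.89 (other 3 at 1.22 to 1.28), Hyou1 at 1.87 (other 3 at 1.12 to 1.25) and Fgl1 at 6.80 (other 3 at 5.75 to 5.91). The same pool stood apart for Insig1 at 1.62 (other 3 at 2.04 to 2.12), Cpt1a at 3.20 (other 3 at 2.41 to 2.52), Hadhb at 0.80 (other 3 at 0.62 to 0.64) and Mt2A at 2.69 (other 3 at 1.38 to 1.51). It was the high pool for the lipid oxidation genes and Fgl1 and the low pool for NM_001013993, Mag and Insig1. MM replicate 3 stood apart for Igh-6l1 at 0.37 (other 3 at 0.68 to 0.73), Msmo1 at -0.40 (other 3 at -0.05 to 0.01), Canx at 0.80 (other 3 at 0.33 to 0.36) and Hsp90ab1 at -0.89 (other 3 at -1.10 to -1.07). The same pool stood apart for Obp3 at 2.95 (other 3 at 2.26 to 2.37), Dcn at -2.15 (other 3 at -2.65 to -2.61) and Dio1 at 1.85 (other 3 at 2.61 to 2.73). It also had the smallest share of liver probes above background.

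MM replicate 4 stood apart for Rhbg at 1.17 (other 3 at 0.72 to 0.78), Ogfod2 at 0.42 (other 3 at 0.20 to 0.23), Dhx58 at 0.55 (other 3 at 0.43 to 0.45) and Cyp26a1 at 0.46 (other 3 at 0.26 to 0.28). The same pool stood apart for Dbp at -0.065 (other 3 at 1.49 to 1.59). M replicate 5 stood apart for RT1-CE13 at 0.56 (other 3 at 0.72 to 0.74), E2f1 at -0.92 (other 3 at -1.19 to -1.15) and Usp18 at 0.73 (other 3 at 1.31 to 1.40). MM replicate 1 stood apart for Nr1i3 at 3.25 (other 3 at 1.64 to 1.83), Stat3 at 0.16 (other 3 at 0.37 to 0.39) and Camp at 0.33 (other 3 at 0.85 to 0.92). M replicate 7 stood apart for Aif1 at 2.16 (other 3 at 2.40 to 2.44) and Aurka at -1.85 (other 3 at -2.20 to -2.15). MM replicate 2 stood apart for Insr at 0.32 (other 3 at 0.58 to 0.61).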

How the results depend on the processing

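The count of features past an adjusted p of 0.05 by limma was 1 in the fit as reported. It was 0 without the slide row as a block, with all 16 arrays, in the liver channel alone, with the log ratio of the scanner software, with a normexp offset of 16, with scale normalization between arrays, within slide row 1 and within slide row 2. It was 2 with array weights and with a trended and robust prior, the second feature being XR_085654, which passed the background filter through MM alone and so is no support. When single arrays were left out it was 0 to 2, with XR_085654 again the second feature without M replicate 8. With slide row and column as blocks the count was again 1, but the feature was XR_085654 in place of NM_001013993, and so again no support. XR_085654 dropped out where all 8 arrays had to be well above background. At an unadjusted p under 0.05 the count of 377 became 148 without the row block, 1045 without a filter on dim probes and 650 with array weights, and 262 to 758 when single arrays were left out (758 without MM replicate 4); the other settings gave 314 to 542. The difference of contrasts gave 0 calls with and without the row, with 460 features at an unadjusted p under 0.05 in the fit as reported.

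NM_001013993 kept its negative direction in every setting. Of the 34 list medians, 10 moved by more than the spread between arrays within slide row 1 and 12 within row 2, and 6 with scale normalization. Of the 67 named genes with an unadjusted p under 0.05, opposite signs were met for C3 in the liver channel (-0.05), for C1qc (0.05), Crp (0.07) and Cyp8b1 (0.36) with the scanner ratio, and for Akr1c13 within row 2 (-0.01); the cause was not tested. No paired analysis was possible because rats were pooled at random and the labels do not tie a rat to a litter. M replicates carry the numbers 5 to 8 and MM replicates 1 to 4, so the groups share no number either. With 2 arrays of a group in a row and 4 in all, the number of arrays limits what could be called. MM replicate 3 had the smallest share of probes above background in liver.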
